A study of Mus musculus with 28 samples.

Results

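The matrix metalloproteinases, their tissue inhibitors (TIMPs) and the membrane-anchored inhibitor Reck were followed in the livers of mice with nonalcoholic steatohepatitis (NASH) treated with 2 agonists of the farnesoid X receptor (FXR), a nuclear receptor for bile acids. The genes were chosen by name, as the matrix-degrading enzymes Mmp2, Mmp8, Mmp12, Mmp13, Mmp14 and Mmp19 and the inhibitors Timp1, Timp2, Timp3 and Reck, and their symbols were matched to Ensembl identifiers, which gave 10 of the 21935 genes in the count table. Mmp11 was not included, since opposite-strand reads are held to raise its count in vehicle replicate 5, where it was at 120 CPM (counts per 1000000 of the total) against 1.23 to 3.96 in the other 9 vehicle mice. In 9 of the 10 genes the counts were high enough for testing, and Mmp8 was the exception.

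Male mice of the strain B6.V-Lepob/JRj, which lack leptin (Lep ob/ob), were obtained at 5 weeks of age and fed the AMLN diet, high in trans fat, fructose and cholesterol, for 14 weeks before treatment and during it. They then received by mouth, once daily for 2 weeks, vehicle alone (n = 10), obeticholic acid (OCA) at 30 mg/kg (n = 9) or INT-787 at 30 mg/kg (n = 9). Every group thus shared the lack of leptin and the diet, and no lean or chow-fed mouse was analysed here. OCA is a modified bile acid, and INT-787 is OCA with an additional hydroxyl group. Whole liver was sequenced as polyadenylated RNA, so each value is a mean over hepatocytes, macrophages, stellate cells and all other cells of the tissue.

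Matrix metalloproteinases are zinc enzymes, made as inactive precursors, that cut collagens, elastin and other matrix proteins once their propeptide is removed. Mmp8 and Mmp13 are collagenases that open the triple helix of fibrillar collagen, Mmp2 is a gelatinase that digests denatured collagen and basement membrane, Mmp12 is the elastase of macrophages, and Mmp14 is anchored in the membrane and activates pro-Mmp2. Each TIMP occupies the catalytic site of the active enzymes, and Timp2 also takes part in the activation of pro-Mmp2 on Mmp14. Reck is held in the membrane by a lipid anchor and restrains Mmp2, Mmp14 and the sheddase Adam10. In fibrotic liver, stellate cells and macrophages are known sources of these genes, and Timp1 is one of the transcripts that activated stellate cells make.

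The 28 libraries held 1009593 to 22421506 counts, with a median of 14864947. The lowest total belonged to vehicle replicate 6, in which a level of a few CPM is a few reads. The genes of the 10 called at an adjusted p of at most 0.05 were the same without vehicle replicates 5 and 6 together. Among the OCA mice, replicate 8 had the highest level of Mmp2, Mmp8, Timp1, Timp2, Timp3 and Reck, and the calls of the genes below that it moves are given with and without it. The hepatocyte markers Alb, Apoa1, Ttr, Cyp2e1 and Serpina1c summed to 63460 CPM or more in every mouse.

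The positions of the genes are those of GRCm38. Mmp13 (chr9:7272514-7283331), Mmp12 (chr9:7344381-7369499) and Mmp8 (chr9:7558456-7568485) are neighbours in the metalloproteinase cluster of chromosome 9. Mmp2 lies at chr8:92827291-92853420, Mmp14 at chr14:54431612-54445364 and Mmp19 at chr10:128790910-128800824. Of the inhibitors, Timp1 lies at chrX:20870166-20874735, Timp2 on the reverse strand at chr11:118301069-118355740, Timp3 at chr10:86300372-86349506 and Reck at chr4:43875530-43944806. Reck has 23 merged exons and Timp1 has 6.

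Sequences just before the start of 4 genes are shown because Mmp13, Mmp12, Timp1 and Reck include the largest differences described below. The RefSeq promoter table for GRCm38.p6 has 32851 windows that run from 250 bases before to 50 bases after a transcript start. It holds windows for 8 of the 10 genes, with 2 for Mmp12; Mmp2 and Mmp19 are named here without one. Both strands were searched for the letters TGANTCA, the site of AP-1, a factor known from the regulation of several metalloproteinase promoters, and for the inverted repeat of hexamers, 1 base apart, that FXR is known to bind. TGANTCA was found in 2565 windows of the table (7.81%) and in 2 of the 9 windows of these genes, those of Mmp13 and of the second start of Mmp12. The first base of the match lay 35 bases before the start of Mmp13 and 44 bases before the second start of Mmp12. The inverted repeat was found in 3 windows of the table (0.00913%) and in 0 of the 9 windows of these genes. A match describes letters only, and its absence says nothing of FXR. In the 250 bases before the start that follow, all on the forward strand and written 5′ to 3′, capitals mark TGANTCA. The windows are chr9:7272264-7272513 for Mmp13, chr9:7347124-7347373 for the second start of Mmp12, chrX:20869916-20870165 for Timp1 and chr4:43875280-43875529 for Reck.
Mmp13: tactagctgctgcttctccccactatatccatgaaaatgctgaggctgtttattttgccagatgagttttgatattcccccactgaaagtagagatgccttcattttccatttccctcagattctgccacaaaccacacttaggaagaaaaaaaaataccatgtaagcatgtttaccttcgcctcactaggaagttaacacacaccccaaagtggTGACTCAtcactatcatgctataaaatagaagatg
Mmp12: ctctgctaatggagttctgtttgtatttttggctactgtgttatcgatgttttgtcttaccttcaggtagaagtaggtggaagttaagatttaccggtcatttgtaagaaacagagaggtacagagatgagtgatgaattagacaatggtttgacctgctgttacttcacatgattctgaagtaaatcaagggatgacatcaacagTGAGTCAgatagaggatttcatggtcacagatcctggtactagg
Timp1: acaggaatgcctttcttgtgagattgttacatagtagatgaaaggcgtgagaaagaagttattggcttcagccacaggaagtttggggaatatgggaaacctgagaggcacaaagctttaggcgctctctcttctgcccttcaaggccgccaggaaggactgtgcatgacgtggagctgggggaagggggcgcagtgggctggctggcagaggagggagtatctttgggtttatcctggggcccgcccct
Reck: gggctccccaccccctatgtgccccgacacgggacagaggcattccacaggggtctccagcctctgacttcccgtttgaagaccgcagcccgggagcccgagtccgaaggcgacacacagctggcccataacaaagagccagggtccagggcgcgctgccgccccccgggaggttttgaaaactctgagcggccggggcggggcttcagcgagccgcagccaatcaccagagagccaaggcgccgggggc

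Levels of different genes were set side by side as CPM per kilobase of exon. In vehicle mice the order from the highest level was Mmp19 at 20.6 ± 2.17 (SD, n = 10), Timp2 at 16.3 ± 2.81, Mmp14 at 13.8 ± 1.77, Timp3 at 13.1 ± 2.52, Timp1 at 8.87 ± 2.81, Mmp2 at 8.39 ± 2.56, Mmp12 at 6.71 ± 1.01, Mmp13 at 1.08 ± 0.321, Reck at 0.652 ± 0.157 and Mmp8 at 0.206 ± 0.137 CPM per kilobase. The gaps between Timp2 and Mmp14, Mmp14 and Timp3, Timp1 and Mmp2, and Mmp2 and Mmp12 were smaller than the larger SD of the 2 genes, so the order of those neighbours is not resolved. Mmp12 lay above Mmp13, Mmp13 above Reck and Reck above Mmp8 in all 10 vehicle mice. The order of the lower genes was another one under INT-787, where Reck at 1.34 ± 0.198 (n = 9) lay above Mmp13 at 0.406 ± 0.143 CPM per kilobase in all 9 mice, and Timp1 fell to 2.61 ± 0.989 CPM per kilobase. Under OCA, Reck at 1.02 ± 0.208 lay above Mmp13 at 0.692 ± 0.201 CPM per kilobase in 8 of 9 mice. The 2 lowest-ranked genes of the vehicle group apart from Mmp8 thus stood in reversed order of their means in both drug groups.

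**Figure D1:**
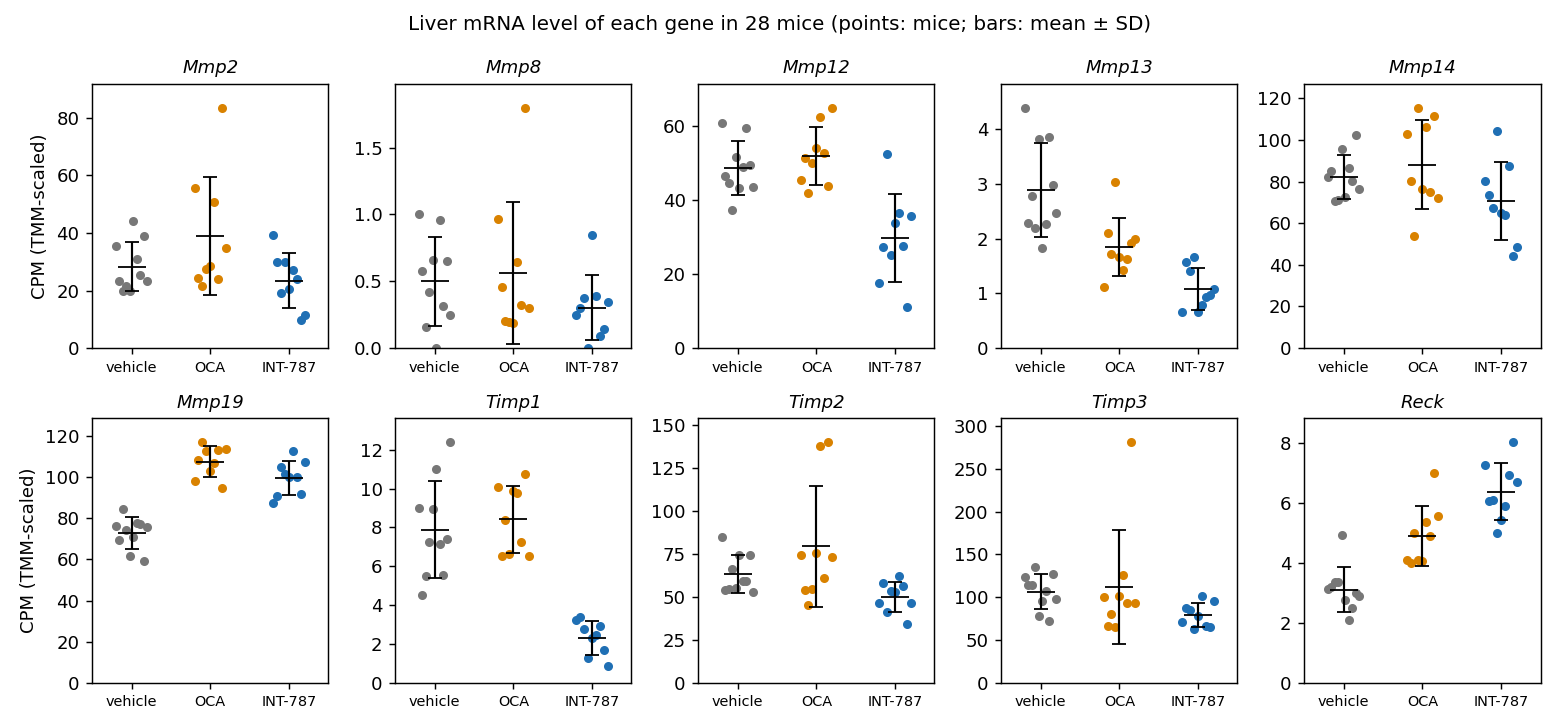
Level of each of the 10 genes in the liver of each mouse, as TMM-scaled CPM on a linear axis from 0, for vehicle (n = 10), OCA (n = 9) and INT-787 (n = 9). Points are mice and bars are the mean ± SD; Timp1 is at 0.854 to 3.42 CPM under INT-787, below the lowest vehicle mouse at 4.51, and Mmp19 is higher in every drug-treated mouse than in any vehicle mouse.

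INT-787 lowered the inhibitor Timp1, the collagenase Mmp13 and the elastase Mmp12, and raised Reck and Mmp19. These were 5 of the 9 genes tested, with 3 lower and 2 higher, and of all 12580 genes tested 19.6% changed in this comparison, 9.48% lower and 10.2% higher. The log2 difference had a median of -0.34 over the 9 genes and of -0.0010 over all genes tested. OCA lowered Mmp13 and raised Mmp19 and Reck, which were 3 of 9 genes where 6.6% of all genes changed (2.45% lower and 4.15% higher), with a median log2 difference of 0.14 over the 9 genes and 0.018 over all genes tested. Between the drugs at their matched dose and time, Timp1, Mmp12, Mmp13 and Timp2 were lower under INT-787 than under OCA. These were 4 of 9 genes where 5.38% of all genes differed (3.19% lower and 2.19% higher), and 0 of 9 were higher under INT-787. The median log2 difference there was -0.67 over the 9 genes and -0.0065 over all genes tested. Without OCA replicate 8 the counts were 6 against vehicle for INT-787, with Timp3 added, 3 for OCA, and 3 between the drugs, with Mmp12 and Timp1 lower and Reck higher under INT-787. Of the 12606 genes tested without that mouse, 21.7%, 7.43% and 3.51% changed in the same order of comparisons. The median of the 9 genes between the drugs was then -0.51. Both drugs were compared with the same vehicle mice, so their values against vehicle are not independent. In tissue RNA, fewer cells of a type and less RNA per cell cannot be told apart.

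**Figure D2:**
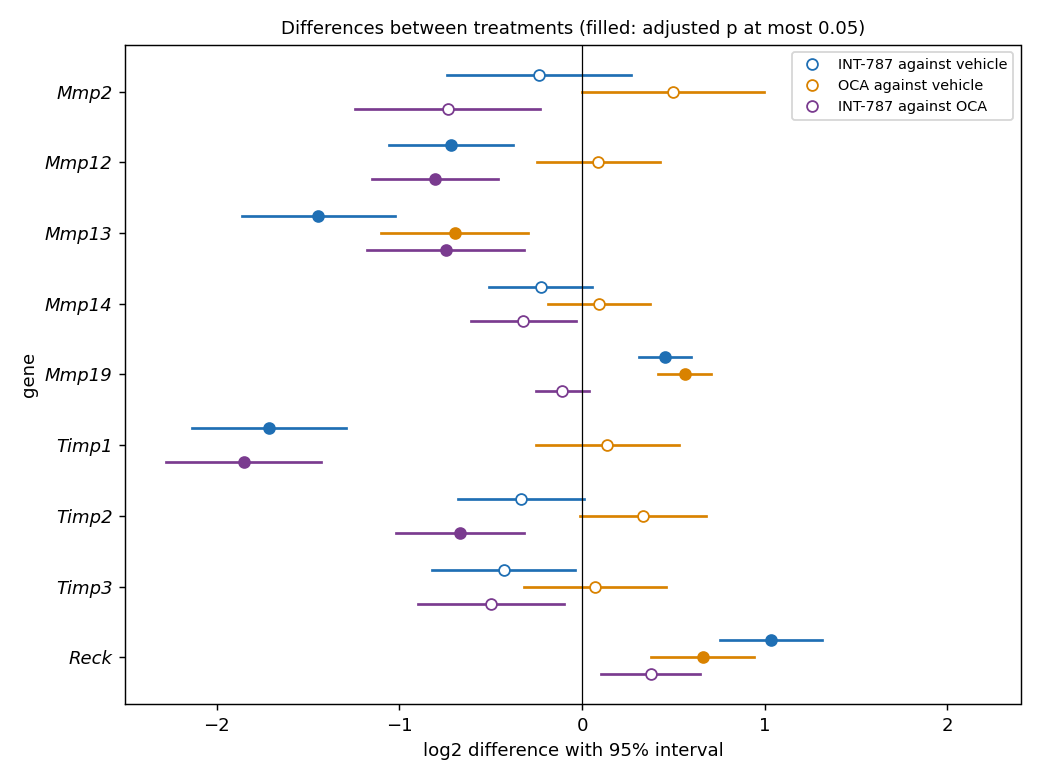
Log2 difference with its 95% interval for each tested gene, as INT-787 against vehicle (blue), OCA against vehicle (orange) and INT-787 against OCA (purple). Filled points have an adjusted p of at most 0.05; Timp1 is at -1.71 and -1.85 in the comparisons of INT-787 with vehicle and with OCA, and at 0.14 for OCA against vehicle.

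Of the collagenases, Mmp13 was measured at low levels and Mmp8 at the limit of detection. Mmp13 was at 1.84, 2.63 and 4.40 CPM in the lowest, median and highest vehicle mouse. It was at 1.12, 1.73 and 3.03 CPM under OCA and at 0.661, 0.977 and 1.66 CPM under INT-787. All 9 mice given INT-787 and 5 of 9 given OCA were below the lowest vehicle mouse, replicate 6, whose value is 2 counts. Without that mouse 9 and 8 of 9 were below the next, at 2.20 CPM. The log2 difference was -1.45 ± 0.206 (SE) for INT-787 against vehicle (edgeR, adjusted p = 3.85e-06) and -0.70 ± 0.197 for OCA against vehicle (adjusted p = 0.026). INT-787 was lower than OCA by a log2 difference of -0.75 (95% interval -1.18 to -0.32, adjusted p = 0.0308). The last 2 calls are close to the threshold. That of OCA against vehicle was lost without vehicle replicate 1 or 8 or OCA replicate 1 or 6, with an adjusted p of up to 0.0625, and that between the drugs was lost without any one of OCA replicates 2, 4 and 8 and INT-787 replicates 1, 5, 6, 7, 8 and 9, with up to 0.0656. In the fits that lost the call the log2 difference was -0.65 to -0.61 and -0.74 to -0.64.

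Mmp8, the collagenase that neutrophils store, had 198 counts over all 28 mice and did not pass the filter on low counts. It was at 0, 0.496 and 1.01 CPM in the lowest, median and highest vehicle mouse, at 0.185, 0.326 and 1.80 CPM under OCA and at 0, 0.297 and 0.846 CPM under INT-787. The groups overlapped throughout. The 0 counts in vehicle replicate 6 and in INT-787 replicate 4 allow up to 2.76 and 0.217 CPM, for counting error only. Fitted without the filter, its log2 difference was -0.82 for INT-787 against vehicle (edgeR, adjusted p = 0.291), so a difference was not detectable at this depth. The 10 neutrophil markers together were at 1.83 to 9.31 CPM over the mice. Only S100a8 and S100a9, with 401 and 553 counts, had enough for testing, and 0 of the 2 were called in any comparison (1 had an unadjusted p under 0.05 for INT-787 against vehicle). Ly6g, a defining marker, had a mean of 0 CPM in vehicle mice.

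Mmp12 differed between the drugs. Its exons share 157 bases with exons of Mmp1b on the other strand, which had 0 counts in every mouse. Mmp12 was at 37.4, 47.7 and 60.9 CPM in the lowest, median and highest vehicle mouse and at 41.9, 51.5 and 65.0 CPM under OCA. Under INT-787 it was at 11.2, 27.6 and 52.6 CPM. The values of 8 of 9 mice given INT-787 lay below the lowest mouse of either other group, and INT-787 replicate 3, at 52.6 CPM, lay inside both ranges. The log2 difference of INT-787 was -0.72 ± 0.167 from vehicle (adjusted p = 0.00228) and -0.81 from OCA (95% interval -1.15 to -0.46, adjusted p = 0.0036). OCA differed from vehicle by 0.09 (95% interval -0.25 to 0.42, adjusted p = 0.857). Markers of macrophages, the known source of this elastase, moved with it. Under INT-787 4 of the 8 markers fell against vehicle, namely Cd68, Trem2, Gpnmb and Itgax, and the same 4 were lower than under OCA, where 9.48% and 3.19% of all genes were lower. Adgre1, Clec4f, Cd5l and Vsig4 did not pass the test in any comparison, and without OCA replicate 8 Cd5l passed under INT-787 (log2 difference -0.42, adjusted p = 0.0364). The 8 markers summed to 501 to 686 CPM in vehicle mice, 397 to 895 under OCA and 294 to 554 under INT-787, and none of them was absent. Their part in the difference of Mmp12 was not tested.

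Mmp19, a metalloproteinase with broad matrix substrates, had the highest level per kilobase of the 10 genes and was the enzyme that rose. It was at 59.3, 75.1 and 84.4 CPM in the lowest, median and highest vehicle mouse, at 94.4, 108 and 117 CPM under OCA and at 87.4, 100.2 and 113 CPM under INT-787. Neither drug group overlapped the vehicle group. The log2 difference was 0.56 ± 0.0703 for OCA (adjusted p = 1.25e-06) and 0.45 ± 0.0703 for INT-787 (adjusted p = 1.61e-05), which is 1.48 and 1.37 times the vehicle level. Between the drugs it was -0.11 (95% interval -0.25 to 0.04, adjusted p = 0.451), which does not show that they act alike. Exons of Mmp19 share 1001 bases with opposite-strand exons of Gm47093 and Tmem198b, and vehicle replicate 5, the mouse with the high Mmp11 count, had the ninth highest of the 10 vehicle levels, 61.5 CPM.

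The pair Mmp2 and Mmp14, gelatinase and its membrane activator, did not pass the test in any comparison. Mmp2 was at 19.8, 24.5 and 44.1 CPM in the lowest, median and highest vehicle mouse, at 21.5, 28.5 and 83.5 CPM under OCA and at 9.63, 24 and 39.2 CPM under INT-787. The 3 ranges overlapped, with 4 of 9 mice given INT-787 below the lowest mouse given OCA. The log2 difference between the drugs was -0.74 (95% interval -1.24 to -0.23, adjusted p = 0.0781). That value passed the threshold without INT-787 replicate 1 (adjusted p = 0.0425) or OCA replicate 3 (0.043), and ranged from -0.86 to -0.51 over the fits that left out 1 mouse each. The lowest size, -0.51, was that without OCA replicate 8 (adjusted p = 0.274). The corresponding values against vehicle were 0.50 for OCA (adjusted p = 0.268), or 0.28 without OCA replicate 8 (0.54), and -0.24 for INT-787 (0.556). Mmp14 was at 70.8, 81.3 and 103 CPM in vehicle mice, 53.8, 80.2 and 116 under OCA and 44.2, 67.2 and 105 under INT-787, again with overlapping ranges. Its log2 difference between the drugs was -0.32 (95% interval -0.61 to -0.03, adjusted p = 0.197).

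Timp1, the inducible inhibitor, showed the largest difference of the 9 tested genes in both comparisons of INT-787. It was at 4.51, 7.33 and 12.4 CPM in the lowest, median and highest vehicle mouse and at 6.51, 8.38 and 10.7 CPM under OCA. Under INT-787 it was at 0.854, 2.44 and 3.42 CPM. Every mouse given INT-787 lay below every mouse of both other groups. The level was 0.305 times that of vehicle (log2 difference -1.71 ± 0.208, adjusted p = 2.32e-07) and 0.277 times that of OCA (log2 difference -1.85, 95% interval -2.28 to -1.43, adjusted p = 7.50e-07). OCA differed from vehicle by 0.14 (95% interval -0.25 to 0.53, adjusted p = 0.785). The calls for INT-787 held in all alternatives and without any 1 mouse, with a log2 difference against vehicle of -1.81 to -1.60 when single mice were left out. Timp1 lies inside the span of Syn1 on the other strand, with 0 bases of shared exon.

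Markers of stellate cells and myofibroblasts, a known source of Timp1, differed in part along with it. Of 8 markers, Des, Lrat and Acta2 fell under INT-787 against vehicle, and Lum and Acta2 were lower than under OCA, which had raised Lum against vehicle. The 3 and 2 of 8 stand beside 9.48% and 3.19% of all genes lower. Rgs5, Pdgfrb, Dcn and Reln did not pass the test in either comparison. Without OCA replicate 8, Rgs5 and Pdgfrb passed under INT-787 against vehicle (adjusted p = 0.0485 for each) and Lum did not under OCA (0.0863). The 8 markers summed to 476 to 749 CPM in vehicle mice, 514 to 964 under OCA and 355 to 605 under INT-787. These ranges overlapped. Dcn and Reln, which were not called, had the largest part in the sum, with means of 311.3 and 121.8 CPM in vehicle mice. Des, Lrat and Acta2 had means of 15.3, 33.67 and 16.96 CPM there, so the sum says little about the markers that fell. Of 5 genes listed as bile duct markers, only Spp1 was called, and it was lower under INT-787 than in each other group. Without OCA replicate 8 Krt7 was called against vehicle too (adjusted p = 0.0313). Krt19, Epcam and Sox9 were not called in any comparison, so the list does not show a change of bile duct cells. Of 6 endothelial markers, Pecam1 and Cdh5 fell under INT-787 against vehicle (adjusted p = 0.0475 and 0.0312). For OCA and between the drugs 0 were called, where 4 and 0 had an unadjusted p under 0.05. The median log2 difference of the 6 was of similar size under INT-787 (-0.33) and OCA (-0.30), and was -0.012 between the drugs. The 6 summed to 152.5 to 314.4 CPM in vehicle mice, 144.6 to 219.5 under OCA and 108.2 to 237.5 under INT-787. The part of these cells in the difference of Timp1 was not tested.

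Timp2 and Timp3 are made more constitutively, and Timp3 is bound to the matrix. Timp2 was at 53.0, 59.2 and 84.8 CPM in the lowest, median and highest vehicle mouse, at 45.3, 73.5 and 140.0 CPM under OCA and at 34.4, 53.0 and 62.3 CPM under INT-787. All 9 mice given INT-787 lay below the median mouse given OCA, but only 2 lay below its lowest. The log2 difference between the drugs was -0.67 (95% interval -1.02 to -0.32, adjusted p = 0.0178), while neither drug passed the test against vehicle, with 0.33 for OCA (adjusted p = 0.285), or 0.19 without OCA replicate 8 (0.54), and -0.34 for INT-787 (0.17). The call between the drugs was lost without OCA replicate 6 (log2 difference -0.53, adjusted p = 0.0532) or OCA replicate 8 (-0.53, 0.0579), which had 138 and 140.0 CPM. The gene Cep295nl overlaps Timp2 on the same strand, and how the counting divided shared reads is not known.

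Timp3 was at 72.4, 111 and 135 CPM in the lowest, median and highest vehicle mouse, at 65.0, 93.4 and 281 CPM under OCA and at 63.5, 78.2 and 102 CPM under INT-787. The highest value, in OCA replicate 8, was more than any other mouse had. The log2 difference for INT-787 against vehicle was -0.43 (adjusted p = 0.114), and without OCA replicate 8 it was -0.43 with an adjusted p of 0.0132. For OCA against vehicle it was 0.07 (adjusted p = 0.914) with that mouse and -0.23 (0.328) without it. Between the drugs it was -0.50 (95% interval -0.90 to -0.10, adjusted p = 0.138), and -0.20 (0.565) without that mouse. Exons of Timp3 share 1733 bases with exons of Syn3 on the other strand, and vehicle replicate 5 had the ninth highest of the 10 vehicle levels, 78.5 CPM.

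The makeup of the inhibitors differed as well. Per kilobase of exon, Timp1 was 23 ± 6.17% of the 3 TIMPs in vehicle mice (range 15.4% to 35.2%, n = 10) and 23.1 ± 4.94% under OCA (14.7% to 30.4%, n = 9). Under INT-787 it was 10.3 ± 3.54% (3.91% to 14.9%, n = 9). Timp2 was 42.6 ± 4.08%, 46.4 ± 5.35% and 50.9 ± 4.75% and Timp3 was 34.3 ± 5.55%, 30.5 ± 4.86% and 38.8 ± 5.13% in the same order of groups. The share of Timp1 under INT-787 thus lay below that of every vehicle mouse, and its range met the lowest of the OCA mice.

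Reck rose in both drug groups while Timp1 fell in 1. It was at 2.09, 3.06 and 4.92 CPM in the lowest, median and highest vehicle mouse, at 4.00, 4.89 and 7.01 CPM under OCA and at 4.99, 6.11 and 8.03 CPM under INT-787. All mice given INT-787 lay above the highest vehicle mouse, by a narrow margin, and 4 of 9 given OCA did. Without that vehicle mouse, replicate 5, the next highest was at 3.36 CPM and all 9 mice of each drug group lay above it. The level was 2.05 times that of vehicle under INT-787 (log2 difference 1.03 ± 0.137, adjusted p = 1.14e-06) and 1.58 times under OCA (0.66 ± 0.138, adjusted p = 0.00182). Between the drugs the log2 difference was 0.38 (95% interval 0.10 to 0.65, adjusted p = 0.0967), and without OCA replicate 8 it was 0.46 (adjusted p = 0.0448). Reck shares 0 exon bases with a gene on the other strand. The small gene Gm27265 lies within it on the same strand.

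**Figure D3:**
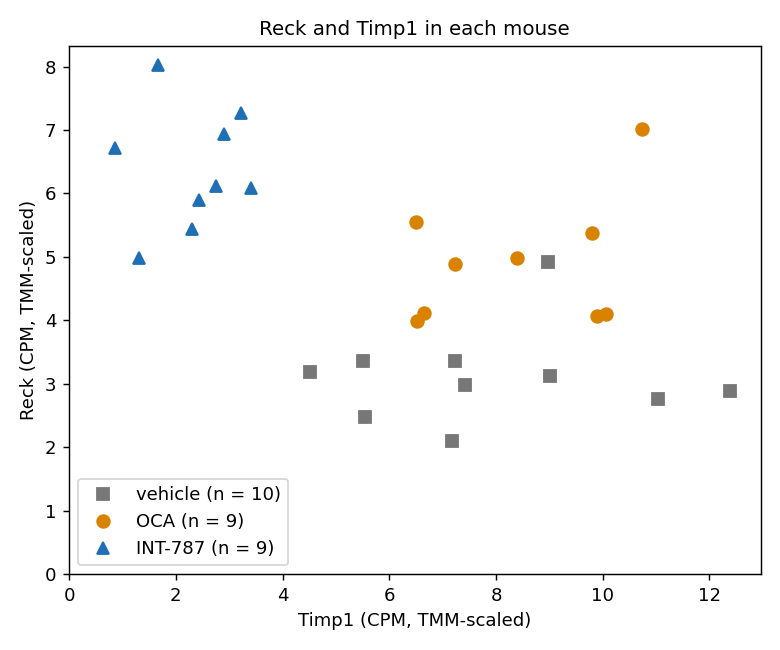
Reck against Timp1 in each of 28 mice, both as TMM-scaled CPM on linear axes from 0, for vehicle (grey squares), OCA (orange circles) and INT-787 (blue triangles). The INT-787 mice have Timp1 at 0.854 to 3.42 CPM with Reck at 4.99 to 8.03 CPM, apart from the vehicle mice, and the OCA mice have Timp1 at 6.51 to 10.7 CPM with Reck at 4.00 to 7.01 CPM.

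Beyond the treatments, some of the genes varied together from mouse to mouse. The deviation of each gene's log2 CPM from its group mean was correlated over the 28 mice for all 45 pairs, with two-sided p-values from 100000 permutations within groups and adjusted over the 45 pairs. Mmp2 and Timp2 had a Pearson r of 0.762 (permutation p = 3e-05, adjusted 0.00135) and a Spearman rho of 0.771 (adjusted 0.00135). The r of this pair was 0.665 without the 2 mice farthest from the median of Mmp2, and 0.794 within vehicle, 0.872 within OCA and 0.66 within INT-787. In every pair the 2 farthest mice were picked by the gene named first only. Mmp2, Mmp14 and Timp2 are the known partners in the activation of pro-Mmp2. Of their pairs, Mmp14 with Timp2 did not pass, with r = 0.489 (adjusted permutation p = 0.112) and rho = 0.42 (adjusted 0.197). Mmp2 and Mmp14 had a Pearson r of 0.681 (permutation p = 0.00045, adjusted 0.00675) and a rho of 0.628 (adjusted 0.0298), with 0.591 without the 2 farthest mice and 0.201, 0.681 and 0.845 within vehicle, OCA and INT-787. Without vehicle replicates 5 and 6 the value within vehicle was 0.838. Timp2 and Timp3 had a Pearson r of 0.71 (permutation p = 0.00018, adjusted 0.00405) and a rho of 0.587 (adjusted 0.0298), with 0.561 without the 2 farthest mice and 0.413, 0.849 and 0.329 within the groups. Mmp2 with Timp2, Mmp2 with Mmp14 and Timp2 with Timp3 were the 3 pairs past an adjusted p of 0.05 by both measures. OCA replicate 8 was the highest OCA mouse in Mmp2, Mmp8, Timp1, Timp2 and Timp3. The correlations were not repeated without that mouse, so its part in them was not tested.

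A further 2 pairs passed by Pearson r alone. Mmp2 with Timp1 had r = 0.532 (permutation p = 0.00483, adjusted 0.0435) and rho = 0.516 (adjusted 0.058), with 0.513 without the 2 farthest mice, and 0.36, 0.683 and 0.613 within the groups. Without vehicle replicates 5 and 6 its r was 0.533 (adjusted permutation p = 0.0585) and its rho 0.545 (adjusted 0.0418). Mmp8 with Timp3 had r = 0.556 (permutation p = 0.00276, adjusted 0.031) and rho = 0.523 (adjusted 0.058), with 0.453 without the 2 farthest mice and 0.245, 0.78 and 0.67 within the groups. Without the same 2 vehicle mice it passed by both measures (r = 0.634, adjusted permutation p = 0.012; rho = 0.605, adjusted 0.0225). All 5 were positive, and the median r of the 45 pairs was 0.118, with a range of -0.398 for Mmp14 with Mmp19 to 0.762. The pair of Timp1 with Reck, at r = 0.118, did not pass. Libraries share depth and cell makeup, and the part of either in these relations was not tested.

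**Figure D4:**
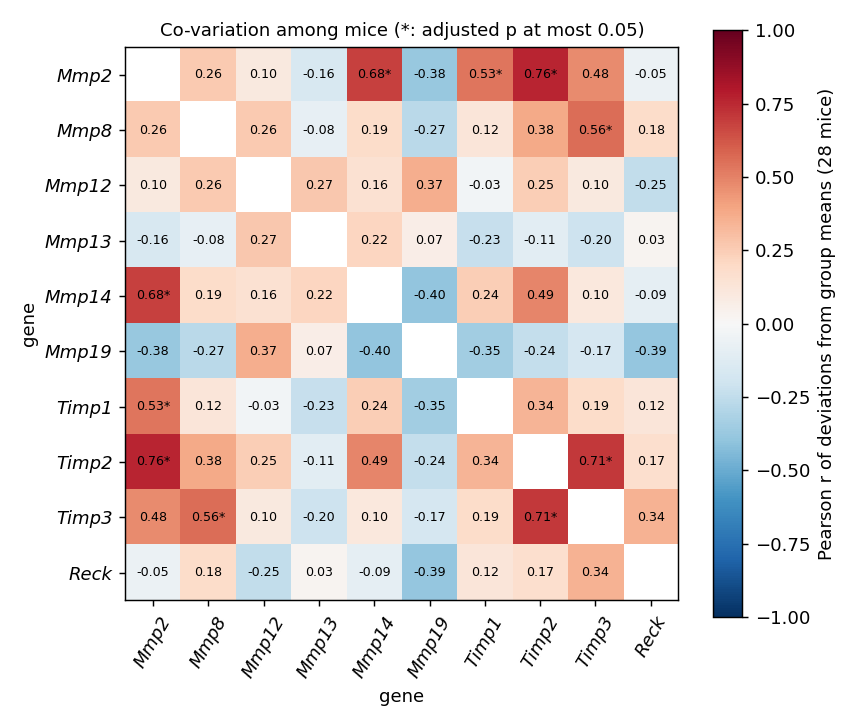
Pearson r between the deviations of 2 genes from their group means over 28 mice, for all 45 pairs, on a color scale from -1 to 1. Asterisks mark an adjusted p of at most 0.05; Mmp2 is in 3 of the 5 marked pairs, with Timp2 (0.762), Mmp14 (0.681) and Timp1 (0.532).

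Most of the rest of the family had few counts. Of 16 other metalloproteinase and TIMP genes in the table, 7 had enough counts for testing. Mmp15, a membrane-type enzyme at 102 ± 19.9 CPM in vehicle mice, fell under INT-787 to 72.1 ± 14.5 CPM (log2 difference -0.51, adjusted p = 0.00582). It was the only one of the 7 called against vehicle under INT-787, where 19.6% of all genes were, and 0 were called for OCA or between the drugs, where 0 and 2 had an unadjusted p under 0.05. Without OCA replicate 8, Mmp23 was also called under INT-787 (log2 difference -0.53, adjusted p = 0.0358, against 0.107 with all mice), which made 2 of 7 where 21.7% of all genes were. Mmp9, the second gelatinase, was at 0.945 ± 0.365 CPM in vehicle mice and at 0.688 ± 0.218 under INT-787 (adjusted p = 0.17), and Timp4 had 19 counts in all mice.

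Related metalloproteinases of the ADAM and ADAMTS families, among the targets of Timp3 and Reck, more often fell than rose under INT-787. Of 19 tested, 10 fell and 2 rose against vehicle, where 9.48% and 10.2% of all genes did, with a median log2 difference of -0.61. The 10 were Adam8, Adam10, Adam12, Adamts1, Adamts2, Adamts5, Adamts9, Adamts10, Adamts12 and Adamts14. Adam10, the sheddase that Reck restrains, was at 43.9 ± 5.80 CPM in vehicle mice and 34.6 ± 4.00 under INT-787 (log2 difference -0.35, adjusted p = 0.00479), and Adam17, the sheddase that Timp3 blocks, was at 24.6 ± 2.71 and 22 ± 2.57 CPM (adjusted p = 0.175). Adamts2, which removes the amino-terminal propeptide of procollagen, was at 33.6 ± 6.78 CPM in vehicle mice, 43.0 ± 18.3 under OCA and 22 ± 6.04 under INT-787. Its log2 difference between the drugs was -0.97 (adjusted p = 0.00167), and Adam8, Adamts10 and Adamts12 were lower under INT-787 than OCA too. OCA lowered Adamts1 and Adamts14 against vehicle. Adamts7 and Adamts15 rose under INT-787, and Adamts7 also under OCA, where it was 1.86 times the vehicle level (adjusted p = 3.77e-05), against 2.00 times under INT-787 (1.98e-06).

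Precursors of metalloproteinases are opened by plasmin, furin and other serine proteases, and 14 genes of these activators and their inhibitors were tested. Under INT-787 both plasminogen activators fell, Plat from 9.70 ± 2.97 to 5.69 ± 2.02 CPM (log2 difference -0.80, adjusted p = 0.0176) and Plau from 9.80 ± 1.53 to 5.66 ± 1.70 CPM (-0.77, adjusted p = 0.00513). The general protease trap A2m fell too, from 1.11 ± 0.654 to 0.367 ± 0.312 CPM (log2 difference -1.35, adjusted p = 0.0133). It was near the floor, with 282 counts over all mice and 0 counts in 2 of them. The convertase Furin, the kallikrein precursor Klkb1, the hepatocyte protease Hpn and the plasmin inhibitor Serpinf2 rose. The list thus split, with 4 genes higher and 4 lower, where 10.2% and 9.48% of all genes were. OCA raised Plg, Klkb1 and Serpinf2, 3 of 14, and lowered 0, where 4.15% and 2.45% of all genes rose and fell. Plat and Serpine2 were lower under INT-787 than under OCA, Plat not without OCA replicate 8 (adjusted p = 0.177). Serpine2 differed there by -1.34 (adjusted p = 0.00622), or -0.80 (0.0163) without that mouse, and against vehicle by -0.52 under INT-787 (0.23, or 0.0444 without it). Of the 5 hepatocyte markers, Alb rose in both drug groups, by a log2 difference of 0.45 under INT-787 (adjusted p = 0.0247) and 0.62 under OCA (0.00459). The other 4 were not called against vehicle. Serpina1c was lower under INT-787 than under OCA (log2 difference -0.64, adjusted p = 0.0306, or 0.0462 without OCA replicate 8). Against vehicle the median of the 5 markers was -0.19 under INT-787 and 0.089 under OCA. They summed to 63460 to 140700 CPM in vehicle mice, 106400 to 198000 under OCA and 95250 to 168700 under INT-787, and their part in the rise of these genes was not tested.

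Collagen is also broken down inside cells by cathepsins after uptake, and 12 genes of this route were tested, of which 4 changed under INT-787 and 2 under OCA where 19.6% and 6.6% of all genes did. Under INT-787 the lysosomal proteases Ctss and Ctsz fell and Ctsl rose, and Mfge8, a secreted bridge protein with a known role in collagen uptake, rose by a log2 difference of 0.83 (adjusted p = 4.80e-05). OCA raised Mfge8 and lowered Ctsz, the former not without OCA replicate 8 (adjusted p = 0.0553). Ctss and the collagen receptor Mrc2 were lower under INT-787 than under OCA, with log2 differences of -0.62 (adjusted p = 0.013) and -0.91 (0.0223), or -0.44 (0.0337) and -0.71 (0.081) without OCA replicate 8. Without that mouse Mrc2 fell and Lrp1 rose under INT-787 against vehicle, by log2 differences of -0.61 (adjusted p = 0.0437, against 0.0717 with all mice) and 0.48 (0.0396, against 0.0508), and Mfge8 was higher under INT-787 than under OCA (0.45, 0.0352, against 0.19).

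The substrates of the enzymes differed between the drugs in the same samples. Of 9 genes, the collagens and elastin, 8 in all, fell under INT-787 against vehicle and were lower than under OCA, where 9.48% and 3.19% of all genes were lower, with median log2 differences over the 9 of -1.11 and -1.34. Col1a1 was at 411 ± 141 CPM in vehicle mice, 520 ± 250 under OCA and 173 ± 76.1 under INT-787 (adjusted p = 0.000405 against vehicle and 0.000155 against OCA). Eln, the substrate of Mmp12, was at 17.8 ± 6.46, 25 ± 15.5 and 6.43 ± 2.13 CPM in the same order. Fn1, fibronectin, went the other way and rose in both drug groups, by log2 differences of 0.45 under INT-787 (adjusted p = 0.0105) and 0.49 under OCA (0.0141), and it was the only one of the 9 called under OCA, where 6.6% of all genes were. Without OCA replicate 8, Col4a1 and Col4a2 did not pass between the drugs (adjusted p = 0.0636 and 0.087) and the other 6 did. The counts by list show 0 genes higher under INT-787 than under OCA, but the cathepsin list held 1 such gene in 5 of the 10 alternatives, and without OCA replicate 8 that list (Mfge8) and the metalloproteinases and inhibitors described above (Reck) held 1 each.

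**Figure D5:**
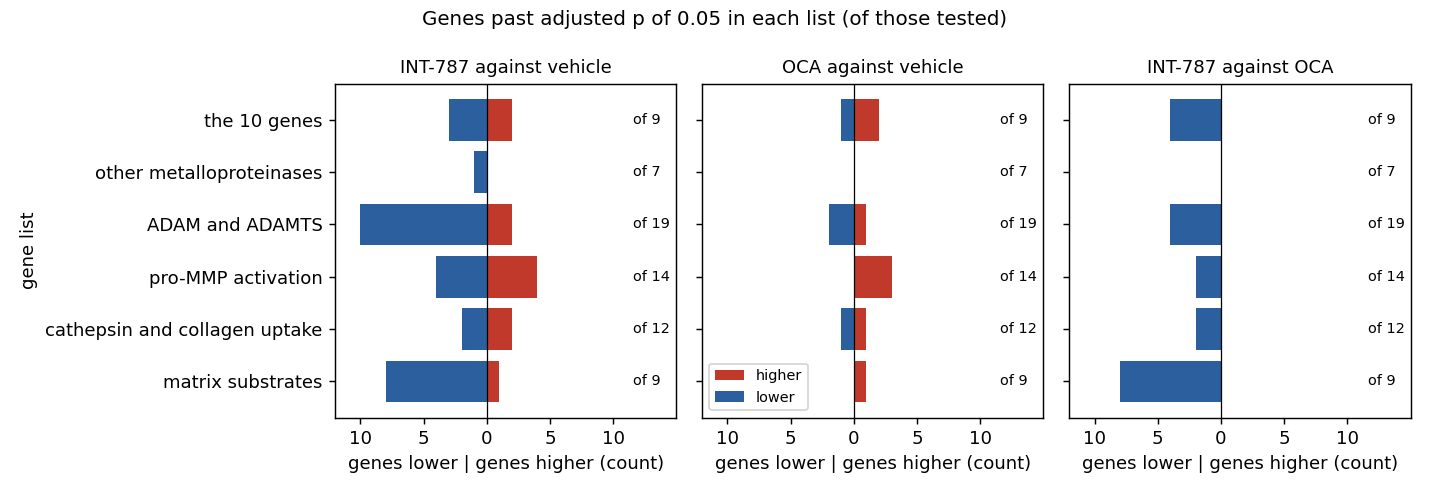
Number of genes lower (blue, to the left) and higher (red, to the right) at an adjusted p of at most 0.05 in each list, for the 3 comparisons, with the number tested at the right. Under INT-787 against vehicle 10 of 19 ADAM and ADAMTS genes and 8 of 9 matrix substrates are lower, and in INT-787 against OCA no bar points to the right.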

How the data were processed

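The authors prepared stranded polyadenylated RNA libraries and aligned the reads to GRCm38 with Ensembl release 89 by STAR. They deposited counts of reads per Ensembl gene and mouse, without normalization; the counting program, its use of strand and any filter are not given in the sources used here. The values were whole numbers, and 0 columns belonged to other samples. Of 21935 genes, 21858 matched GENCODE M21, which gave symbols, positions and exon lengths.

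Groups came from the sample titles, and each sample is a separate mouse. Counts were analyzed with R 4.3.3 and edgeR 4.0.16. Genes were kept by filterByExpr (12580), scaled by TMM and tested with glmQLFit and glmQLFTest in 1 model of the 3 groups. Adjusted p-values are Benjamini-Hochberg values over these genes, with a threshold of 0.05. CPM use TMM-scaled totals, and intervals are 95% intervals of the fitted log2 difference. The code was tested on simulated data. All 10 genes are named with values, and from the other lists mainly genes past the threshold in a comparison. A gene that this rule selects is not reported here, and it remains in all counts and tests. A few others (Mmp9, Timp4, Adam17, marker genes) were named after their values were seen. The genes and lists were chosen with earlier results of these data known. Alternatives were DESeq2 size factors or upper-quartile scaling, a minimum of 10 counts in each mouse or no filter, DESeq2 1.42.0, limma-voom (limma 3.58.1), 2 groups per fit, replicate number or sets of neighbouring sample numbers as a factor, leaving out vehicle replicates 5 and 6, and leaving out each mouse. Motif counts came from the RefSeq promoter table (GRCm38.p6).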

Additional observations from a re-analysis of the deposited data

Results flagged for a closer look

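Single mice stood apart in 4 of the 30 combinations of gene and group that were examined with Dixon's test, where chance gives about 1 in 20. OCA replicate 8 had the highest Timp3 level, 280.9 CPM against 126 CPM in the next OCA mouse, and the highest Mmp8 level, 1.80 CPM against 0.969 CPM. INT-787 replicate 5 had the highest Mmp8 level of its group, 0.846 CPM against 0.394 CPM, a difference of few reads. Vehicle replicate 5 had the highest Reck level of its group, 4.92 CPM against 3.36 CPM. Without OCA replicate 8 the log2 difference of Timp3 between OCA and vehicle was -0.23 in place of 0.07.

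The effects of the drugs differed by the test of INT-787 against OCA itself for 4 genes. The log2 difference was -1.85 for Timp1, -0.81 for Mmp12, -0.75 for Mmp13 and -0.67 for Timp2, each lower under INT-787. Of these, Timp1 and Mmp12 kept the call without any 1 mouse, whereas Mmp13 lost it without any of 9 mice and Timp2 without OCA replicate 6 or 8.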

How the results depend on the processing

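Over all alternatives, the test of single genes among the 10 gave 1020 values, of which 994 kept direction and side of the threshold, 17 lost the threshold, 6 gained it and 3 reversed. The 3 were Timp3 for OCA against vehicle, at -0.060 with limma-voom, -0.052 with the replicate block and -0.23 without OCA replicate 8 (range -0.23 to 0.14 over single mice left out). With only 2 groups per fit, Timp2 and Timp3 passed for INT-787 against vehicle (adjusted p = 0.0333 and 0.011), and Mmp13 between the drugs did not (0.0552; 0.0726 with the number set). With at least 10 counts in every mouse 7 of the genes were tested, and 3 changed under INT-787 and 1 under OCA, since Mmp13 and Reck were left out. All genes changed with that filter numbered 1765 for INT-787, 693 for OCA and 501 between the drugs. Of 9 ADAM and ADAMTS genes left for testing, 6, 1 and 2 were called in the same order. Of 9 genes of pro-MMP activation left, 5 were called for INT-787 and 1 between the drugs. The count of that list between the drugs was 1 also with DESeq2 size factors, no filter, 2 groups per fit and the replicate block. Other metalloproteinases numbered 1 between the drugs with upper-quartile scaling, no filter or the replicate block, and 2 for INT-787 with no filter or 2 groups per fit. Of that list 7 were tested, or 14 with no filter. All genes changed numbered 708, 612 and 677 in the former settings, and 2453 and 2506 in the latter. The cathepsin list gave 7 of 12 under INT-787 with DESeq2, where 2685 genes changed in all. It gave 1 of 12 under OCA with the number set, where 807 did.

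Upper-quartile scaling moved the share of higher genes among all that changed from 51.7% to 37.5% for INT-787 and from 62.9% to 52.3% for OCA, and called the same of the 10 genes in the same direction. All genes changed between the drugs numbered 443 without OCA replicate 8, and 443 to 888 over single mice left out.

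The replicate numbers were not used as pairs, since the labels tie them to nothing shared and the correlation of deviations ranged from -0.24 to 0.43 over 27 pairs, with 11 over 0.1. For sets of neighbouring sample numbers it was -0.20 to 0.43 over 25 pairs, with 13 over 0.1. Under both labels the pairs numbered 1 to 3 were all positive, from 0.099 to 0.43. With the sets as a factor the Mmp13 call between the drugs was lost (edgeR, adjusted p = 0.0726). With the replicate block 2417, 868 and 677 genes changed, against 2469, 830 and 677, and calls of the 10 genes did not change. Depth limits Mmp8, with 198 counts, and Mmp13 and Reck in vehicle replicate 6.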
